A study of Mus musculus with 12 samples.

Results

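The heat shock chaperones described here are 10 mouse genes chosen by name from a table of 24983 genes counted in liver: Hspa1a, Hspa1b, Hspa8, Hsph1, Dnajb1, Bag3, Hsp90aa1, Hspb1, Hspd1 and Hspe1. Their counts were measured by bulk RNA-seq in 12 livers of C57BL/6J mice, 3 in each of 4 groups, and no genetic change separates the groups. The chow group ate standard chow, and its labels name no pump. The other groups ate a diet used to model nonalcoholic steatohepatitis (NASH), with 40% of calories from fat (saturated and trans-fat) and with added fructose and cholesterol. Feeding lasted 24 weeks, and the mice on this diet carried a subcutaneous osmotic minipump that released either the solvent polyethylene glycol alone (vehicle), oleic acid (OA) in it, or its nitrated form, nitro-oleic acid (OA-NO2), both fatty acids being infused at 5 mg/kg/day. Diet and pump therefore cannot be told apart between vehicle and chow, and the sources used here give neither age nor sex.

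Heat shock proteins keep other proteins folded. HSP70 proteins bind exposed stretches of unfolded chains in cycles that J-domain proteins start and nucleotide exchange factors end, HSP90 takes over clients such as kinases and steroid receptors, small heat shock proteins hold unfolding proteins without using ATP, and the HSP60 and HSP10 pair folds proteins inside mitochondria. Many of these genes are switched on by heat shock factor 1, which binds inverted repeats of a short unit, the heat shock element, in their promoters. Nitro-oleic acid is oleic acid carrying a nitro group, an electrophile that reacts with protein cysteines, and nitro-fatty acids have been described to induce heat shock genes in cultured human endothelial cells.

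Promoter windows of 300 bases, from 250 before to 50 after the RefSeq start (build GRCm38.p6), were found for 8 of the 10 genes, all but Hspa8 and Hsp90aa1. They were searched for inverted pairs of the unit, spelled GAANNTTC or TTCNNGAA, the same on both strands. A pair was present in 6 of the 8 windows, against 15.06% of 32851 windows of the same length. A run of 3 alternating units, which holds overlapping pairs, was present in 2 of the 8, Hsph1 and Hspe1, against 0.6% of windows. No pair was found in the windows used for Dnajb1 and Hspd1. A further RefSeq start of Hspd1 gives a window that shares 285 bases with that of Hspe1 and holds the same pairs. The bases before the start are shown for 4 genes, because they show the near-identity of the Hspa1a and Hspa1b copies, the spaced pairs of Hspb1 and the continuous array of Hspe1. Capitals mark the units of each pair. In order, the stretches are chr17:34972157-34972306 and chr17:34959239-34959388 on the minus strand, and chr5:135887769-135887918 and chr1:55087998-55088131 on the plus strand.
Hspa1a: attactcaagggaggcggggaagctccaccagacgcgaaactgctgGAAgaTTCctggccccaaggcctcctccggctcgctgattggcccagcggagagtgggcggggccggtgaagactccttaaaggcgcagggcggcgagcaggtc
Hspa1b: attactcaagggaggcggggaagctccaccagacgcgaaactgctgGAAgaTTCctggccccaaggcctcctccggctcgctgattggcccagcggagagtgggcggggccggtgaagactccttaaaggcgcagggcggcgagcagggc
Hspb1: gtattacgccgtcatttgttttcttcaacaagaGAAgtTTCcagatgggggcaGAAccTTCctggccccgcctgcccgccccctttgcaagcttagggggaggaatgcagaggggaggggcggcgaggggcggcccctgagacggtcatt
Hspe1: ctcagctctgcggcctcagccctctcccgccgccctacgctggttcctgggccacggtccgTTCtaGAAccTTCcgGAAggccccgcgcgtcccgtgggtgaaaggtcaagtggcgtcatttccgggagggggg
The pair began 104 bases before the start in Hspa1a and Hspa1b, whose shown stretches differ at 1 of 150 bases and whose windows differ at 4 of 300. Hspb1 held pairs beginning 117 and 97 bases before its start. In Hspe1 overlapping pairs began 89, 84 and 79 bases before the RefSeq start. The stretch shown for Hspe1 was cut where the gene begins in the GENCODE annotation, so it ends short of that RefSeq start. These matches describe letters and not binding, which was not measured.

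**Figure D1:**
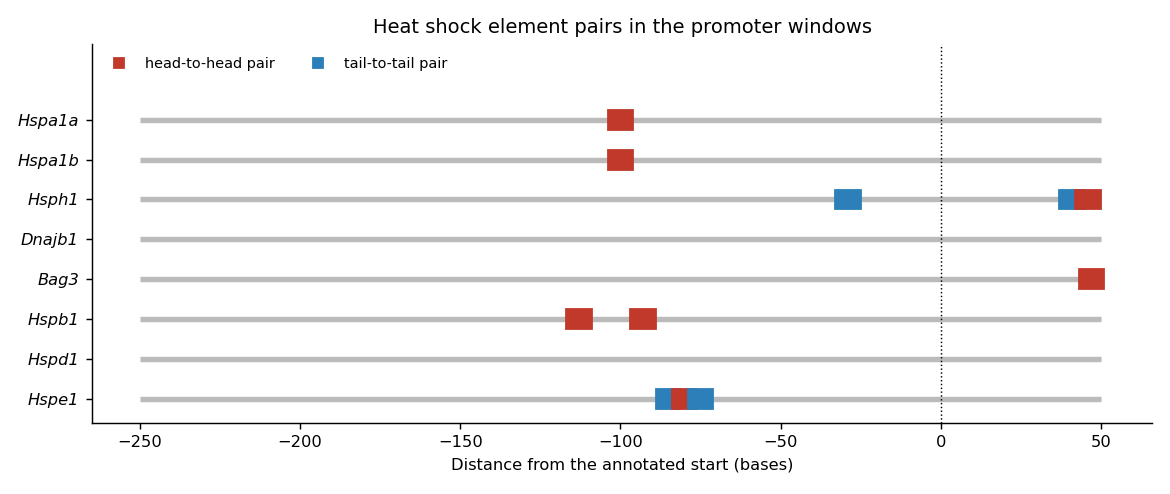
Positions of inverted heat shock element pairs (squares) in the promoter windows of 8 genes (grey lines), by distance in bases from the RefSeq start (dotted line); colour gives the orientation of the pair. Pairs lie upstream in Hspa1a, Hspa1b, Hspb1 and Hspe1, on both sides of the start in Hsph1 and downstream in Bag3, and the windows of Dnajb1 and Hspd1 hold none.

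In GRCm38 with the GENCODE M21 annotation, all 10 are protein-coding genes. Hspa1a (17:34969190-34972156) and Hspa1b (17:34956436-34959238) lie 9951 bases apart on the minus strand of chromosome 17. Hspd1 (1:55077835-55088243, minus strand) and Hspe1 (1:55088132-55091307, plus strand) stand head to head and overlap by 112 bases. Hspa8 lies at 9:40800984-40810087, Dnajb1 at 8:83608193-83612653, Bag3 at 7:128523616-128546981 and Hspb1 at 5:135887919-135889563, all on the plus strand. Hsph1 (5:149614287-149636376) and Hsp90aa1 (12:110690605-110702728) are on the minus strand. How reads that fit several places were counted is not stated by the sources used here, and neither is the use of strand. Of all 76-base stretches of the longest coding transcript, 61.5% in Hspa1a, 55.6% in Hspa1b, 68.3% in Hspa8, 52.9% in Hsp90aa1, 47.1% in Hspb1, 33.3% in Hspd1 and 28.8% in Hspe1 occur unchanged in another annotated gene, mostly pseudogenes and, for the Hspa1 genes, each other. Levels of these genes are uncertain for this reason, by an amount that the shares do not give, while Hsph1, Dnajb1 and Bag3 had 0% shared. The gene sharing most had counts equal to 0.58% of those of Hsp90aa1, 0.04% of those of Hspb1 and 3.16% of those of Hspd1. For Hspa8 and Hspe1 that gene is not among the genes counted. Reads dropped because they fit several places would not show in these values.

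Total counts ran from 8462590 in chow replicate 1 to 20613777 in vehicle replicate 3, with 15972613 the second lowest, and the 10 genes held 0.1922% to 0.2662% of the counts of a library. Levels are given as normalised counts (CPM) on totals scaled by the trimmed mean of M values (TMM). Chow libraries had TMM factors of 0.758 to 0.832 and vehicle libraries of 1.13 to 1.18, and leaving out TMM moved the median over all genes of the log2 fold change, vehicle over chow, from -0.01 to 0.51. All changes below are relative to the bulk of genes, as TMM sets it. Cell type markers moved with the diet. In vehicle livers, summed hepatocyte markers were 52244 to 69059.6 CPM against 134056.6 to 165911 in chow (4 of 7 lower, 0 higher), recruited macrophage markers 127.9 to 271.5 against 11.2 to 17.5 (7 of 7 higher) and cholangiocyte markers 72.3 to 490.4 against 26.7 to 43.4 (5 of 6 higher). In whole tissue, fewer cells of a type and less RNA per cell cannot be told apart, and the part of these shifts in the chaperone changes was not tested.

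Per kilobase of exon, the constitutive HSP70 gene Hspa8 was the highest of the 10 in chow liver at 442.4 ± 48.1 CPM per kb (SD, n = 3 here and for every group below). The mitochondrial pair followed, with Hspd1 at 267.7 ± 26.8 and Hspe1 at 139.8 ± 16.8 CPM per kb, and then Hsp90aa1 at 71.7 ± 10.6 CPM per kb. These 4 neighbours were separated by more than their SDs when divided by the joined length of all annotated exons. That length is 1474 bases for Hspe1 and 7266 for Hsph1, against 774 and 3802 in their longest coding transcripts. Places in the order, among them those of Hspe1 and Hsph1, therefore depend on the length used. Bag3 (8.19 ± 0.47), Hspb1 (7.12 ± 3.28), Dnajb1 (7.04 ± 0.999) and Hsph1 (6.97 ± 1.04 CPM per kb) could not be ordered within their spread, Hspa1b stood lower at 4.25 ± 0.902 CPM per kb, and Hspa1a had no counts. In vehicle liver the order of the first 4 by joined exon length was the same. Hspb1 came next at 41.4 ± 13.7 CPM per kb, above Bag3 at 8.75 ± 1.36. Hspa8 made up 59.2 ± 3.64% of the summed CPM of the 10 genes in chow and 51.37 ± 4.82% with vehicle, so sums over the 10 mostly report Hspa8. That sum was 3044 to 3479.6 CPM in chow, 1674.8 to 2188.6 with vehicle, 1767.2 to 2389.9 under OA and 2391 to 2772.3 under OA-NO2. As a share of raw counts, the 10 genes held 0.2491% to 0.2636% in chow and 0.2512% to 0.2662% under OA-NO2, which overlap. The share was 0.1922% to 0.2478% with vehicle and 0.1989% to 0.2468% under OA. The gap between chow and OA-NO2 thus appeared only on TMM-scaled totals.

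**Figure D2:**
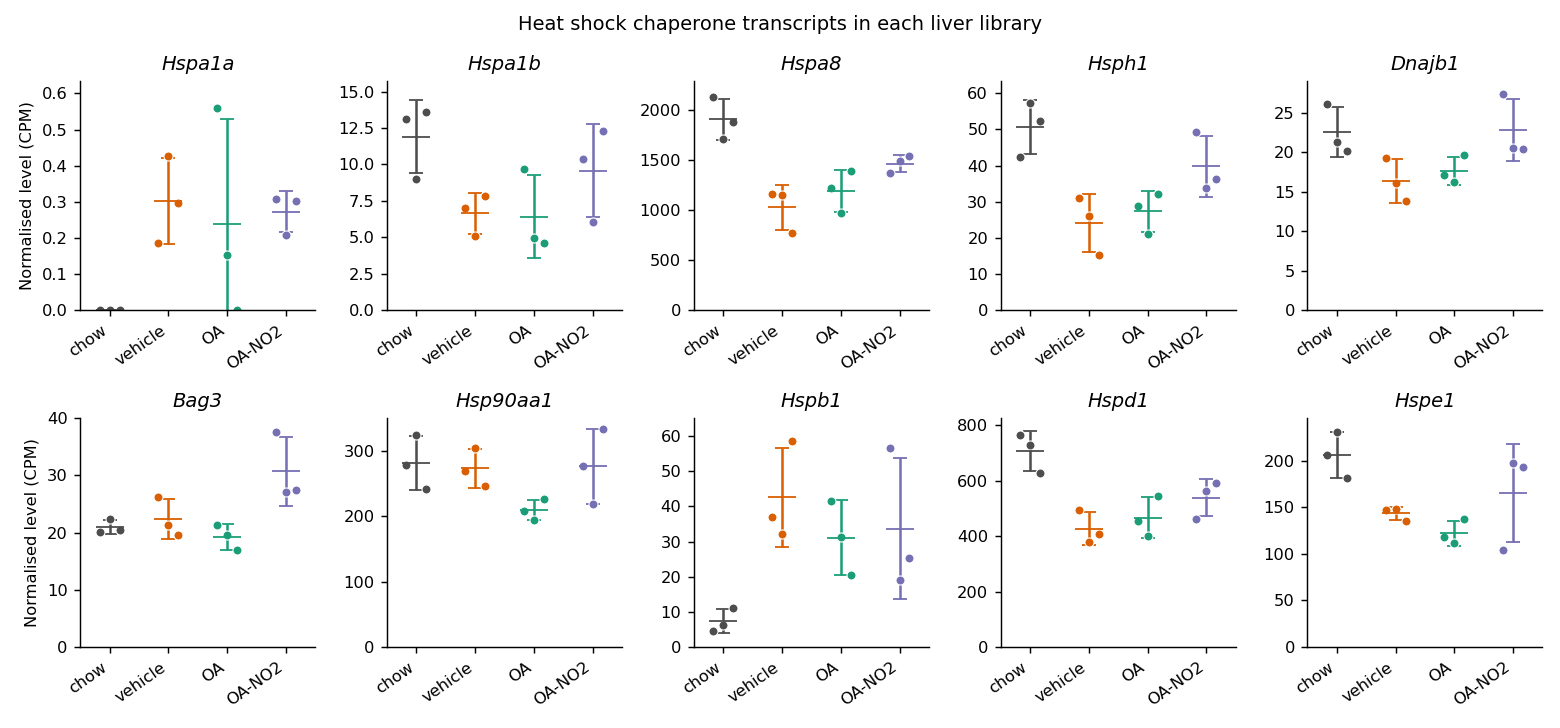
Normalised level (CPM on TMM-scaled totals, linear axes from 0) of each heat shock chaperone gene in each liver; points are single mice, horizontal lines group means and bars the SD of 3 mice. Hspb1 is at 4.68 to 11.1 CPM in chow and at 19.2 to 58.7 CPM in the 9 livers on the NASH diet. On these scaled totals Hspa8 and Hspd1 are higher in chow than in each of these 9. With unscaled totals both genes overlap between chow and NASH-diet livers.

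The first question was how the NASH diet with vehicle differed from chow. Hspb1 rose 5.64-fold, and Hspa8, Hsph1 and Hspd1 fell to 0.539, 0.476 and 0.604 of their chow levels; with totals not scaled by TMM the fall of these 3 lost its call and the rise of Hspb1 stayed. Of the 9 genes with enough counts to test, edgeR's quasi-likelihood test called 4 at a Benjamini-Hochberg adjusted p under 0.05, 1 higher and 3 lower. Among all 14469 genes tested, 19.3% were called, 11.1% higher and 8.16% lower. Vehicle and chow livers did not overlap for 7 of the 9, against 39.4% of all genes. The median log2 fold change of the 9 was -0.52, beside -0.01 over all genes; whether the share called differs from the background was not tested.

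Among the HSP70 genes, Hspa8, the constitutive cytosolic form, stood at 2122.1, 1711.3 and 1875.4 CPM in chow, 1158.2, 1151.4 and 769.8 with vehicle, 1219.9, 967.5 and 1386.3 under OA and 1365.7, 1489.2 and 1532.6 under OA-NO2. On TMM-scaled totals every chow liver was above every liver on the NASH diet. On unscaled totals they overlapped: Hspa8 had 24869 of 17482735 counts in chow replicate 2 and 26534 of 17449884 in OA-NO2 replicate 1. From chow to vehicle the log2 fold change of Hspa8 was -0.89 ± 0.21 (SE, edgeR adjusted p = 0.0119, lower in 3 of 3 mice). Without vehicle replicate 3, the lowest library, it was -0.72 with an adjusted p of 0.0553. The inducible form Hspa1b stood at 13.1, 9.01 and 13.6 CPM in chow, 6.99, 5.12 and 7.82 with vehicle, 9.68, 4.97 and 4.58 under OA and 10.4, 6.06 and 12.3 under OA-NO2. Vehicle livers lay below all chow livers, OA and OA-NO2 livers overlapped them, and the change from chow to vehicle, -0.83 ± 0.32 on the log2 scale, missed the threshold in edgeR at an adjusted p of 0.0837. Only with the other groups left out of the fit did it pass (adjusted p = 0.0315). Its near-copy Hspa1a was counted at 0, 0 and 0 reads in chow, 4, 8 and 7 with vehicle, 11, 3 and 0 under OA and 6, 4 and 5 under OA-NO2. These counts were too low for the filter. Set against a floor of 3 counts over the chow group, the observed Hspa1a level was 3.62-fold with vehicle, 3.06-fold with OA and 3.31-fold with OA-NO2. These ratios put no error on the few reads of the NASH-diet groups, so they are no lower bounds of the change. Without the filter, over 24983 genes, the edgeR adjusted p of Hspa1a against chow was 0.0426 with vehicle, 0.0935 under OA and 0.166 under OA-NO2. The 2 genes thus had opposite signs, although most of their sequence is shared. With the reads of both added into 1 gene, 92.3% to 100% of which came from Hspa1b, vehicle over chow was -0.77 ± 0.32 on the log2 scale (edgeR adjusted p = 0.111).

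The genes that drive the HSP70 cycle did not share one pattern. Hsph1, an HSP110 protein that exchanges nucleotide on HSP70, stood at 42.4, 57.3 and 52.3 CPM in chow, 31.1, 26.1 and 15.4 with vehicle, 28.7, 21.2 and 32.2 under OA and 49.4, 33.8 and 36.2 under OA-NO2. Its fall from chow to vehicle, -1.07 ± 0.25 on the log2 scale (edgeR adjusted p = 0.0116), was the steepest of the 9 tested. Vehicle and OA livers lay wholly below chow, while OA-NO2 replicate 1 lay within the chow range. Dnajb1, the HSP40 J-domain protein that pairs with inducible HSP70, stood at 26.2, 21.3 and 20.2 CPM in chow, 19.3, 16.1 and 13.8 with vehicle, 17.1, 16.3 and 19.7 under OA and 27.4, 20.6 and 20.5 under OA-NO2. Vehicle livers lay below chow, yet the change of -0.45 ± 0.17 was not called (edgeR adjusted p = 0.0849), and its sign turned to 0.07 with unscaled totals. Bag3, an exchange factor that links HSP70 to small heat shock proteins and to autophagy, stood at 20.1, 22.4 and 20.5 CPM in chow, 26.3, 21.3 and 19.6 with vehicle, 21.4, 19.5 and 16.9 under OA and 37.6, 27.1 and 27.4 under OA-NO2. Chow, vehicle and OA livers overlapped, and the OA-NO2 livers were the 3 highest of the 12. Vehicle over chow was 0.09 ± 0.17 for Bag3 (edgeR adjusted p = 0.734), with a 95% interval of -0.27 to 0.46 on the log2 scale; with unscaled totals it was 0.61 and called (adjusted p = 0.0415).

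Hsp90aa1, the stress-inducible cytosolic HSP90, stood at 279.3, 324.6 and 241.2 CPM in chow, 268.6, 304.6 and 246.4 with vehicle, 208, 194.7 and 226.1 under OA and 276.5, 218.6 and 334 under OA-NO2. Chow and vehicle livers overlapped throughout, and the OA livers lay below both. Vehicle over chow was -0.04 ± 0.18 on the log2 scale (edgeR adjusted p = 0.886, 95% interval -0.43 to 0.34), which turned to 0.48 with unscaled totals and was then called (adjusted p = 0.0472).

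Hspb1, the small heat shock protein HSP25 of the mouse, moved the other way from Hspa8. It stood at 4.68, 6.19 and 11.1 CPM in chow, 36.9, 32.2 and 58.7 with vehicle, 41.7, 31.3 and 20.5 under OA and 56.6, 19.2 and 25.2 under OA-NO2. All 9 livers on the NASH diet were above all 3 chow livers, and the values within the OA and OA-NO2 groups were widely spread. Vehicle over chow was 2.5 ± 0.43 on the log2 scale (edgeR adjusted p = 0.00365). Of the 9 tested it had the widest replicate spread, a biological coefficient of variation of 0.346 that lay at percentile 87.6 of all genes. OA replicate 3, the lowest of its group for Hspb1, was also the lowest for the markers of cholangiocytes (35.2 CPM, against 392.1 and 219.2 in replicates 1 and 2) and of recruited macrophages (57 against 296.9 and 211.8). OA-NO2 replicate 1, the highest of its group for Hspb1, was the highest for both marker sums (95.7 against 49.5 and 77, and 117.1 against 27.3 and 53.7). Vehicle livers did not follow this: replicate 2 had the lowest Hspb1 of its group and the highest sum of both marker lists (490.4 and 271.5 CPM). In chow, replicate 1 had the lowest Hspb1 and the highest cholangiocyte sum (43.4 CPM). The recruited macrophage sum of chow livers rose in the same order as Hspb1 (11.2, 13 and 17.5 CPM in replicates 1, 2 and 3). Other marker lists went both ways. In OA livers the stellate and Kupffer cell sums were also lowest in replicate 3 (383 and 529 CPM). Under OA-NO2 the stellate cell sum was highest in replicate 3 (522.2 CPM, against 419.3 in replicate 1). The Kupffer cell sum under OA-NO2 was lowest in replicate 1 (469.5 CPM, against 664.6 and 533.9). The part of other cell types in the level of Hspb1 was not tested.

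The mitochondrial chaperonin Hspd1 (HSP60) stood at 765.3, 727.8 and 628.5 CPM in chow, 493.7, 379.8 and 407.8 with vehicle, 453.8, 400.2 and 546.3 under OA and 462.8, 562.7 and 590.5 under OA-NO2. On TMM-scaled totals every chow liver was above every liver on the NASH diet. On unscaled totals they overlapped: Hspd1 had 9816 of 19082770 counts in chow replicate 3 and 10596 of 18952322 in vehicle replicate 1. Vehicle over chow was -0.73 ± 0.18 on the log2 scale (edgeR adjusted p = 0.0157). The call was lost without chow replicate 1 (adjusted p = 0.0581), vehicle replicate 2 (0.0636) or vehicle replicate 3 (0.0625), with log2 fold changes of -0.67, -0.65 and -0.7. Its co-chaperonin Hspe1 (HSP10) stood at 206.3, 230.7 and 181.2 CPM in chow, 147.3, 148 and 135.2 with vehicle, 118, 111.4 and 137.3 under OA and 104.3, 197.6 and 193.3 under OA-NO2. Vehicle and OA livers lay below chow, and the OA-NO2 livers were split, with replicate 1 the lowest of all 12 and the others inside the chow range. Vehicle over chow was -0.52 ± 0.21 for Hspe1 and was not called (edgeR adjusted p = 0.0989), while the fit of these groups alone gave an adjusted p of 0.041. OA-NO2 replicate 1 thus held the lowest Hspd1 and Hspe1 of its group together with the highest Hspb1, Hsph1, Dnajb1 and Bag3. With unscaled totals Hspe1 was at 0 and Hspd1 at -0.21, and neither was called.

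**Figure D3:**
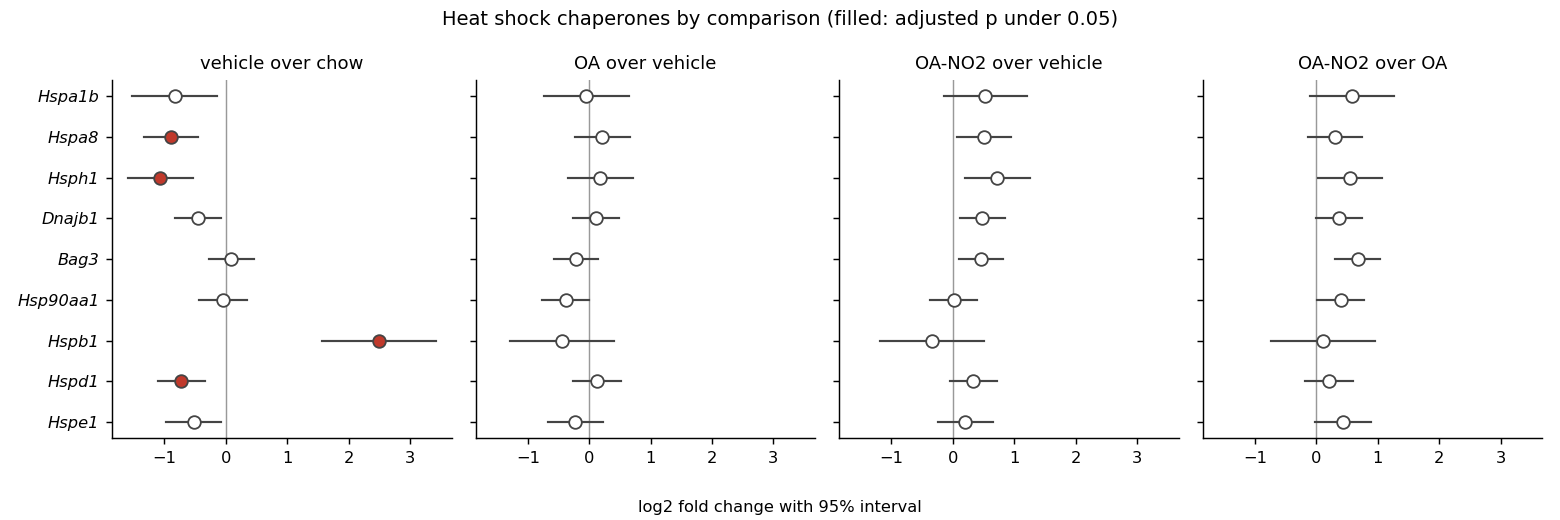
Log2 fold change with 95% interval of the 9 tested heat shock chaperone genes in 4 comparisons (edgeR on TMM-scaled counts; filled points have an adjusted p under 0.05). In vehicle over chow Hspb1 is filled at 2.5, and Hspa8, Hsph1 and Hspd1 are filled at -0.89, -1.07 and -0.73, calls that these 3 lose with unscaled totals; no point is filled in the comparisons between pump contents.

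The comparisons with chow share the 3 chow libraries, so their values stand side by side and are no independent support. For the mean of the 3 NASH-diet groups over chow, 5 of 9 were called, beside 16.1% of all genes. The log2 fold changes were 2.23 for Hspb1 (edgeR adjusted p = 0.00417), -0.65 for Hspa8 (0.0185), -0.77 for Hsph1 (0.0184), -0.57 for Hspd1 (0.018) and -0.53 for Hspe1 (0.0462). All 4 of these falls lost their call with unscaled totals, and without chow replicate 1 only Hsph1 of the 4 was called, without chow replicate 2 only Hspa8. Their highest adjusted p on leaving out 1 library was 0.0974 for Hspa8, 0.0965 for Hsph1 and 0.092 for Hspd1. Hspe1 kept its call only without OA-NO2 replicate 1, 2 or 3 or OA replicate 3, and lost it without any of the other 8 libraries in turn (adjusted p up to 0.189). For OA over chow, 3 of 9 were called, beside 8.56% of all genes: Hspb1 at 2.04 (adjusted p = 0.0127), Hsph1 at -0.89 (0.0402) and Hspe1 at -0.75 (0.0438). Without OA replicate 3, 5 of 9 were called in OA over chow, 1 was without chow replicate 3 or OA replicate 2, which was Hspb1, and none was without chow replicate 1 or 2. Without OA replicate 1, Hspb1 lost its call (1.78, adjusted p = 0.059), and the 1 gene called was Hspa1b at -1.31 (adjusted p = 0.0487). With unscaled totals Hsph1 and Hspe1 lost their calls in OA over chow. For OA-NO2 over chow, 1 of 9 was called, beside 0.684% of all genes. That gene was Hspb1, at 2.16 ± 0.43 (edgeR adjusted p = 0.045). It lost this call without any chow library or without OA-NO2 replicate 1 or 3 (log2 fold changes of 1.55 to 2.6, adjusted p up to 0.146). In the same comparison Hspa8 was at -0.38 (95% interval -0.82 to 0.06), Hsph1 at -0.35 (-0.88 to 0.17), Hspd1 at -0.39 (-0.78 to -0.01), Dnajb1 at 0.02 (-0.35 to 0.4) and Bag3 at 0.55 (0.18 to 0.91), with adjusted p of 0.332, 0.45, 0.257, 0.954 and 0.126. With unscaled totals Bag3 was called higher in OA-NO2 over chow at 0.88 (edgeR adjusted p = 0.035). For the mean of the NASH-diet groups it was called at 0.6 (0.0241).

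Infused OA was then compared with vehicle on the same diet. None of the 9 was called, and neither was any of the 14469 genes (0%); 0 of the 9 and 564 of all genes had an unadjusted p under 0.05, and DESeq2 called 0 genes as well. The log2 fold changes ran from -0.45 for Hspb1 (95% interval -1.3 to 0.4) to 0.21 for Hspa8 (-0.23 to 0.66), with edgeR adjusted p of 0.975 to 0.99. The groups did not overlap for 1 of the 9, near the 13.1% of all genes: this was Hsp90aa1, lower in OA livers at -0.38 (-0.77 to 0). Folds of 1.58 for Hspa8, 1.63 for Hsph1 and 1.32 for Hspb1, the upper ends of their intervals, remained possible in these data. So did the lower ends, 0.855 for Hspa8, 0.786 for Hsph1, 0.406 for Hspb1 and 0.588 for Hsp90aa1.

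OA-NO2 and vehicle were compared next, a comparison that shares the vehicle libraries with those above. None of the 9 was called, beside 0.0207% of all genes, which is 3 genes. Unadjusted p was under 0.05 for 4 of the 9 and for 15.8% of all genes, and DESeq2 called 300 genes but 0 of the 9. Livers did not overlap for 4 of the 9, against 19.7% of all genes, and in each of the 4 the OA-NO2 livers lay above: Hsph1 at 0.72 ± 0.24, Hspa8 at 0.51 ± 0.21, Dnajb1 at 0.48 ± 0.17 and Bag3 at 0.45 ± 0.17 on the log2 scale. Their edgeR adjusted p were 0.196, 0.257, 0.216 and 0.225, and over the alternative settings their log2 fold changes stayed positive, from 0.48 to 0.94, 0.31 to 0.61, 0.3 to 0.61 and 0.27 to 0.58. The median of the 9 was 0.45, beside 0.02 over all genes, and 8 of the 9 were positive; with unscaled totals 6 were, with a median of 0.27 beside -0.18 over all genes. Hspb1 was at -0.34 (95% interval -1.19 to 0.51) and Hsp90aa1 at 0.02 (-0.37 to 0.4). Marker lists moved with these values. Summed hepatocyte markers were at 78596.3 to 115839.7 CPM with OA-NO2, above all vehicle livers (7 of 7 positive, median 0.58 on the log2 scale). Several lists of other cell types had negative medians, with 0 of 7 recruited macrophage markers positive (median -1.72, summed 27.3 to 117.1 CPM), 0 of 6 cholangiocyte markers (-2.04, 49.5 to 95.7 CPM), 0 of 7 stellate cell markers (-0.69) and 0 of 5 B and plasma cell markers (-1.36). None of the markers in these lists was called. Of 8 Kupffer cell markers, 5 were positive (median 0.18) and 1 was called higher, Cd163 at 4.85 ± 0.38 (edgeR adjusted p = 9.81e-05). The part of the marker lists in the result was not tested.

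OA-NO2 and OA differ by the nitro group and were infused at the same rate in this 1 pair of compounds. No gene of the 9 was called, beside 0.00691% of all genes, which is 1 gene, and DESeq2 called 49 genes but 0 of the 9. All 9 were higher with OA-NO2, with a median log2 fold change of 0.4 beside 0 over all genes; with unscaled totals all 9 were again positive, with a median of 0.29 beside -0.11. Unadjusted p was under 0.05 for 3 of the 9 and for 12.0% of all genes. Livers did not overlap for Bag3, Hsph1 and Dnajb1, against 14.3% of all genes. Bag3 had the largest difference, 1.59-fold with a 95% interval of 1.24 to 2.05 (unadjusted p = 0.00136 and adjusted p = 0.313 in edgeR), and it ranged from 0.5 to 0.75 on the log2 scale over all alternatives. The fold was 1.45 for Hsph1 (1.01 to 2.09), 1.32 for Hsp90aa1 (1.01 to 1.72), 1.29 for Dnajb1 (0.998 to 1.67) and 1.35 for Hspe1 (0.986 to 1.85). For Hspa1b it was 1.49 (0.929 to 2.4), for Hspa8 1.23 (0.905 to 1.67), for Hspd1 1.15 (0.884 to 1.51) and for Hspb1 1.08 (0.599 to 1.95). Marker lists moved here as well: 7 of 7 hepatocyte markers were positive (median 0.3), as were 0 of 7 recruited macrophage markers (-1.35), 1 of 6 cholangiocyte markers (-1.4) and 0 of 6 T and NK cell markers (-0.74), with 0 called. Of 8 Kupffer cell markers, 4 were positive (median -0.03) and 1 was called higher, Cd163 at 3.76 ± 0.35 (edgeR adjusted p = 0.00085). The part of the marker lists was not tested. The intervals of the chaperone genes leave room for changes above and below the values given, and they do not show that the compounds act alike.

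Related chaperone families were followed from lists of their genes. Over all genes tested, vehicle over chow had 8.16% called lower and 11.1% called higher, and no list was tested against these shares. In vehicle over chow, the cytosolic chaperonin TRiC, which folds actin and tubulin, had 3 of 8 subunits lower, Tcp1 (-0.63 ± 0.13, edgeR adjusted p = 0.00772), Cct5 (-0.45 ± 0.13) and Cct6a (-0.41 ± 0.13), and all 8 were negative with a median of -0.34; with unscaled totals 7 of 8 were positive and 0 called, with a median of 0.18 beside 0.51 over all genes. Of 10 J-domain proteins 3 fell, Dnajb4 (-0.62 ± 0.13), Dnajb6 (-0.95 ± 0.23) and Dnajc7 (-0.45 ± 0.14), and 0 rose. The HSP90 list had 2 of 11 lower, Ahsa2 (-0.55 ± 0.16) and Ahsa1 (-0.49 ± 0.15), the latter an activator of the HSP90 ATPase. Of 15 other HSP70 genes and exchange factors 1 fell, Bag4 (-0.73 ± 0.19), near the share called lower over all genes. None of these lower calls held with unscaled totals, where Dnajc7, Ahsa1, Cct5 and Cct6a were slightly positive at 0.07, 0.03, 0.07 and 0.11.

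Among 4 tested of 6 other small heat shock proteins 1 rose, Cryab, the lens and muscle protein alpha B crystallin, at 1.12 ± 0.34 (edgeR adjusted p = 0.0369). None of 10 mitochondrial chaperones and proteases was called in vehicle over chow, and Lonp1, a matrix protease, had the lowest p at 0.47 ± 0.16 (adjusted p = 0.062). None of 5 genes of heat shock factors and their binding partners was called either, with Hsf1 at 0.37 ± 0.2 (adjusted p = 0.214), although Hsf1 was called higher with unscaled totals at 0.89 (adjusted p = 0.0144). In the endoplasmic reticulum 1 of 11 chaperones rose, Sdf2l1 at 1.33 ± 0.41, and 1 fell, Dnajc3 at -0.44 ± 0.13. Both counts are near the 11.1% and 8.16% of all genes called higher and lower. NRF2 targets, genes of the response to electrophiles, rose for 7 of 12 and fell for 0, with the lowest p for Gstm3 at 4.34 ± 0.49 and the next for Gsta1 at 5.2 ± 0.7. The cold-inducible genes Cirbp and Rbm3 were not called, and 0 of 12 immediate early genes were called. Of 12 tested clock genes 1 fell, Clock at -0.66 ± 0.15, also near the share called lower over all genes. With unscaled totals, where the median of all genes was 0.51, Dnajc3 (0.08) and Clock (-0.14) lost their calls. The same setting called 5510 of all 14469 genes higher and 248 lower. It called higher 3 of the 10 mitochondrial genes, Lonp1 among them, 3 of the 5 heat shock factor genes and 4 of the 11 chaperones of the endoplasmic reticulum. Of the 15 other HSP70 genes and exchange factors 6 were called higher, as was 1 gene each of the J-domain, HSP90 and small heat shock protein lists. Also called higher were 1 cold-inducible gene, 1 immediate early gene and 11 NRF2 targets, and 0 genes of these lists were called lower. In OA-NO2 over vehicle and OA-NO2 over OA, 0 genes of any of these lists were called by edgeR. The lowest p among the chaperone lists in OA-NO2 over vehicle was that of the small heat shock protein Hspb6, at 0.67 ± 0.18 (adjusted p = 0.162), and in OA-NO2 over OA that of Hspa13, at -0.68 ± 0.17 (adjusted p = 0.313).

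**Figure D4:**
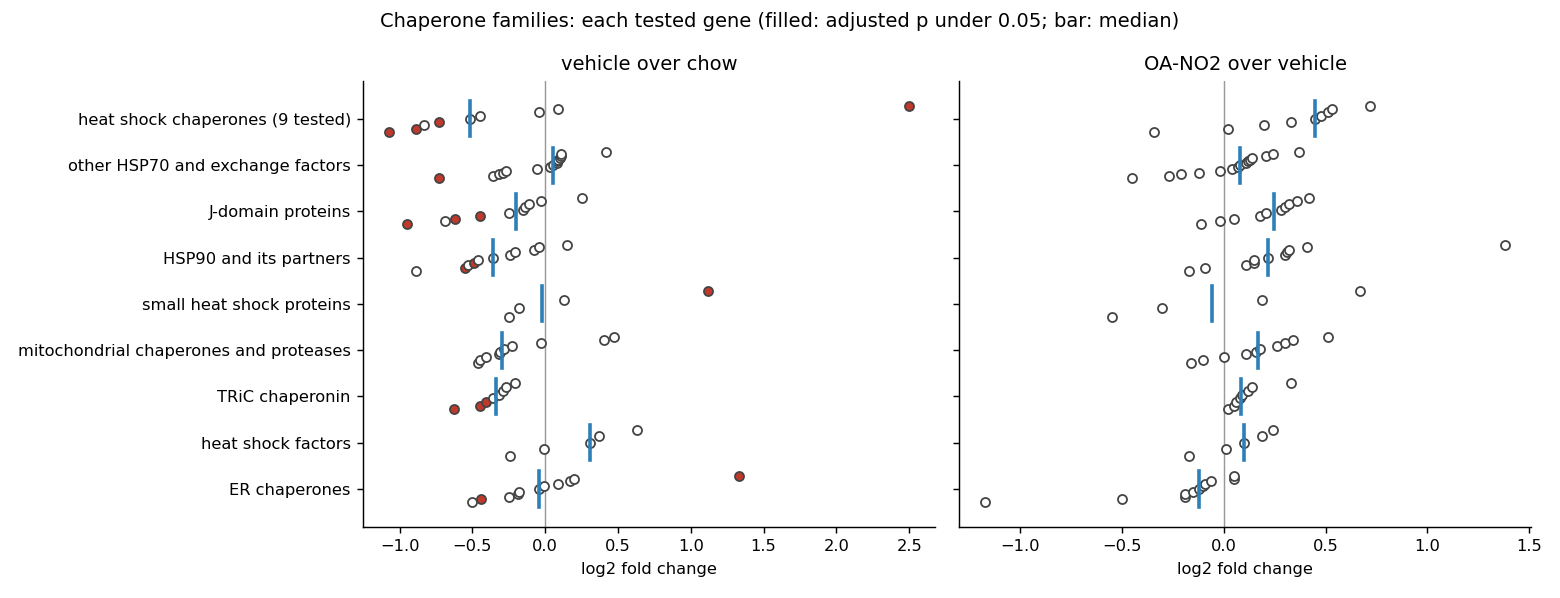
Log2 fold change of each tested gene (points, spread vertically for legibility) in 9 chaperone families for vehicle over chow and OA-NO2 over vehicle, from edgeR on TMM-scaled counts; filled points have an adjusted p under 0.05 and bars are medians. In vehicle over chow the median is -0.52 for the 9 heat shock chaperones, -0.34 for TRiC and -0.36 for the HSP90 list, which with unscaled totals become 0, 0.18 and 0.15 beside 0.51 over all genes; no point is filled in OA-NO2 over vehicle.

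The genes whose log2 CPM followed Hspa1b most closely over the 12 libraries were Uggt2, Tmco6, Abtb2, Mycl, Il17rb and Zfp750, with Pearson correlations of 0.934, 0.887, 0.886, 0.857, 0.854 and 0.837. After group means were removed, the correlations were 0.876, 0.911, 0.925, 0.84, 0.789 and 0.785. The 6 were picked by the first set of values, among tested genes that averaged 1 CPM or more and have no predicted name; other genes were closer once group means were removed. The values describe these libraries, which share groups and scaling, and no test was made.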

How the data were processed

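Livers of 12 mice, told apart by ear tags in the labels, gave 1 RNA-seq library each. Per the labels' protocols, libraries were made with a KAPA mRNA kit and read as pairs of 76 bases. Per the submitters' processing notes, the tools, used with build GRCm38, included HTSeq, SAMtools 1.2, HISAT2 2.1.0 and Trimmomatic 0.35. The authors deposited whole-number read counts per gene, not normalised, for 24983 genes, of which 24914 matched a symbol and 0 entries were not genes. Replicates were numbered as deposited, which pairs no mice. Replicates differed by more than sampling noise (chi-square of at least 24.3 per degree of freedom).

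Genes were filtered with edgeR 4.0.16 in R 4.3.3 (minimum count 10, minimum total 15), leaving 14469, and scaled by TMM. A quasi-likelihood model over all 12 libraries had 1 coefficient per group. Genes were called at a Benjamini-Hochberg adjusted p under 0.05 over all genes tested. Standard errors are the log2 fold change over the square root of F, an approximation. The method was tested on simulated counts. Alternatives were other scaling, DESeq2 1.42.0, no filter, fits of the compared groups alone and leaving out each library.

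The members and lists were chosen with earlier results of these data known. Named were all 10 members, up to 3 called genes per other list by lowest p, or the 1 with the lowest p where none was called, and the 6 genes most like Hspa1b (mean CPM of at least 1, predicted genes left out). Promoter sequences are from RefSeq. Counting precision is limited by depth for Hspa1a and Hspa1b. The ratios of Hspa1a to the chow floor cover neither the counting error of the other groups nor the spread between mice.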

Additional observations from a re-analysis of the deposited data

How the results depend on the processing

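Other scaling by DESeq2 size factors changed no call of the 9 tested genes. Of 738 alternative values of single genes, 653 kept their direction and their side of the threshold. Among the rest, 46 kept their sign but lost a call, 11 kept it and gained a call, and 28 turned sign. Most of the 738 values belong to results not called in the main fit, which had no call to lose. The 653 are therefore no measure of how firm the calls are. Totals without TMM gave other counts of genes called: against chow, 2 in the NASH-diet groups, 1 with OA, 2 with OA-NO2 and 3 with vehicle, all of them higher. DESeq2 called 5 in OA over chow, and the fit of the compared groups alone called 6 in vehicle over chow and 0 in OA-NO2 over chow. For the mean of the NASH-diet groups over chow, which uses all 4 groups, that fit is the main fit itself. Without the filter, which adds Hspa1a to the 9, 5 were called in vehicle over chow, Hspa1a among them. Leaving out 1 library gave 2 to 4 for vehicle over chow (2 without vehicle replicate 3), 2 to 5 for the NASH-diet groups over chow (2 without chow replicate 1 or 2, and 3 without chow replicate 3), 0 to 5 with OA over chow and 0 to 1 with OA-NO2 over chow. No gene of the 9 was called between pump contents under any alternative. The 2 genes Hspa1a and Hspa1b, summed or apart, were not called between pump contents either.

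Signs turned with unscaled totals for Dnajb1 (0.07 in vehicle, 0.17 in the NASH-diet groups and 0.08 in OA over chow), Hsp90aa1 (0.48, 0.25 and, in OA-NO2 over chow, 0.29), Bag3 (0.31 in OA over chow) and Hspa1b (0.02 in OA-NO2 over chow). In OA-NO2 over vehicle they turned for Hsp90aa1 (-0.19) and Hspe1 (-0.02), and without the filter Hsp90aa1 was at 0. Leaving out 1 library turned signs that lay near 0, with ranges in vehicle over chow of -0.15 to 0.07 for Hsp90aa1 and -0.04 to 0.18 for Bag3. In OA-NO2 over chow the ranges were -0.13 to 0.14 for Dnajb1 and -0.19 to 0.11 for Hsp90aa1. In OA over vehicle they were -0.48 to 0.11 for Hspa1b, -0.06 to 0.41 for Hsph1 and -0.03 to 0.25 for Hspd1. Hsp90aa1 in OA-NO2 over vehicle ran from -0.14 to 0.16, and Hspb1 in OA-NO2 over OA from -0.49 to 0.39. The cause of these changes was not tested. No paired analysis was possible because the replicate numbers pair no animals.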
